A study of Homo sapiens with 72 samples.

Results

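The 39 HOX cluster genes were taken as every gene in the table whose symbol reads HOXA, HOXB, HOXC or HOXD followed by a number. They are 39 of 19324 genes, and 38 of them were among the 15470 genes with enough counts to be tested. The study sequenced polyadenylated RNA from HEK293 Flp-In T-REx cells, an adenovirus-transformed line from human embryonic kidney that carries a recombination site for transgenes. It asked how blocking the checkpoint kinase ATR changes transcription after ultraviolet light (UV). The 4 lines were unedited cells (WT), 1 knockout line of CSB (CSB_KO) and 2 knockout lines of STK19 (STK19_KO1 and STK19_KO2). CSB, encoded by ERCC6, starts repair where RNA polymerase II stalls on damaged DNA, and STK19 has been placed in the same repair pathway. Each line was sampled untreated, 3 h after UV without an added compound, and at 4 h and 20 h with the solvent DMSO or with 3 µM VE-821, an inhibitor of ATR (ATRi). Each of these 24 groups held 3 libraries, 72 in all.

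Several features limit these groups. CSB_KO is a single clone and WT is the only unedited line, so a trait of a clone cannot be told apart from its knockout. The labels used here state no UV dose. The labels do not settle whether 4 h and 20 h count from UV or from the addition of the compound. No unirradiated cells with DMSO or ATRi, and no unirradiated cells at later times, were analysed here. A change against untreated cells therefore holds UV, solvent and time in culture together. The labels do not say whether replicates were separate cultures, so p-values measure the spread between these libraries, which may be technical.

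HOX genes encode transcription factors with a homeodomain, a DNA-binding fold. These factors set the identity of segments along the head-to-tail axis of the embryo. In mammals they lie in 4 clusters on different chromosomes. Within a cluster the genes stand in the order in which they are used along the body, from low numbers at the head to high numbers at the tail. Genes of the same number in different clusters are paralogues, copies descended from 1 ancestral gene. Polycomb proteins keep the clusters silent, Trithorax proteins keep them active, and retinoic acid opens them from the low-numbered end. Cell lines usually keep a HOX pattern that reflects the position of the tissue they came from.

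The clusters were compact. On GRCh38, in the coordinates of the deposited table, HOXA covered 107 kb of chromosome 7 with 11 genes. HOXB covered 200.2 kb at chr17:48528526-48728750 with 10 genes. HOXC covered 117 kb at chr12:53938831-54056030 with 9 genes, and HOXD covered 98.2 kb at chr2:176092721-176190907 with 9 genes. The 21 genes of HOXA and HOXB lie on the minus strand, and the 18 of HOXC and HOXD lie on the plus strand. All but 8 of the 39 genes span under 10 kb.

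Promoter sequence was available for 20 of the 39 genes in the RefSeq table used (GRCh38.p14), as the 250 bases before an annotated start. HOXC4 and HOXC5 share an identical entry, which leaves 19 distinct windows. The promoters below are shown because they pair paralogues whose RNA moved in opposite directions at 3 h after UV and at 4 h with DMSO. At both times HOXA13 fell while HOXD13 rose, and HOXD4 fell while HOXA4 rose, in every line. At 20 h with DMSO HOXD13 was not called in any line. The promoters are printed 5′ to 3′ on the strand of the gene. Capitals mark 4 motifs searched on both strands: the GC box GGGCGG, the CCAAT box CCAAT, the TATA box TATAAA and the E-box CACGTG.
HOXA13, chr7:27200092-27200341, minus strand: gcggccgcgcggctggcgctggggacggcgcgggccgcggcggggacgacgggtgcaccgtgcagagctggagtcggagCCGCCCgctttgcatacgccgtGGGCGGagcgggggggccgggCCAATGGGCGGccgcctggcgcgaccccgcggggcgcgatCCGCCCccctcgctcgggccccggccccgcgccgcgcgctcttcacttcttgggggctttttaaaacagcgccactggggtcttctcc
HOXD13, chr2:176092471-176092720, plus strand: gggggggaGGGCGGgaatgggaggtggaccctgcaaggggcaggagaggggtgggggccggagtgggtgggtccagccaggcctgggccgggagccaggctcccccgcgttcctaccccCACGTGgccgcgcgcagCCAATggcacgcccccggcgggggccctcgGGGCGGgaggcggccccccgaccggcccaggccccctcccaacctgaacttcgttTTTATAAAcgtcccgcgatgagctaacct
HOXA4, chr7:27130758-27131007, minus strand: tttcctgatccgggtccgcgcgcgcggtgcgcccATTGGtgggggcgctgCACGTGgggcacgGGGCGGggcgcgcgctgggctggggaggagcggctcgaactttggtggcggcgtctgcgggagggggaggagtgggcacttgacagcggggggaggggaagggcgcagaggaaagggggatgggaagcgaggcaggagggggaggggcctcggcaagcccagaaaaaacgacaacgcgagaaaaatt
HOXD4, chr2:176151300-176151549, plus strand: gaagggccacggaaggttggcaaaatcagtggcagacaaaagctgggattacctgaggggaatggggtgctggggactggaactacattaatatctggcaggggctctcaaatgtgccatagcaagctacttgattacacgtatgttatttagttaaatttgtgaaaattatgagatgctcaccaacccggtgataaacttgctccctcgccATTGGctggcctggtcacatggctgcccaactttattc

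All 4 windows hold 1 CCAAT box. HOXA13 has 4 GC boxes, 1 of them directly after its CCAAT box, and no TATA box or E-box. HOXD13 has 2 GC boxes, 1 E-box and a TATA box that reads on both strands, so that 2 overlapping matches were counted. HOXA4 has 1 GC box and 1 E-box, and HOXD4 has none of the other 3 motifs. Their GC content was 78.0%, 74.0%, 70.0% and 47.6% in the order HOXA13, HOXD13, HOXA4, HOXD4. Over the matched HOX promoters, a CCAAT box was present in 17 of 20 (85.0%), or 16 of 19 distinct windows, against 33.0% of 27305 promoters of the same length. An E-box was present in 7 of 20 against 6.46%, a GC box in 10 of 20 against 42.2%, and a TATA box in 4 (20.0%) against 11.2%. The observed-to-expected ratio of CpG had a median of 0.888 against 0.554. These are matches of letters, and binding was not measured here. The table's start lies within 50 bases of the deposited gene start for 12 of the 20 genes.

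HOX RNA was present from all 4 clusters. Levels are given in CPM, the counts of a gene per M (mega, as in Mb) counts of the scaled library, and between genes in CPM per kb of exon. Of the 39 genes, 36 had at least 10 counts in each of the 72 libraries, and the lowest of those counts was 18, for HOXD1. The 3 others were HOXB1, HOXD12 and HOXC12. HOXB9, which acts in the thoracic region and mammary gland, was the highest at 56.8 CPM per kb averaged over the 24 groups. HOXA9, a regulator of blood stem cells and a driver of leukaemia, followed at 42.2. HOXA10, needed in the uterus, stood at 30.5, and HOXA5, which acts in the lung, at 28.6. The central and posterior genes HOXB6, HOXD10 and HOXD13 had 21.4, 20.1 and 20.0 CPM per kb. Group 9, whose paralogues pattern the thorax and the upper limb, was high in every cluster: HOXC9 led HOXC at 18.1, and HOXD9 came after HOXD10 and HOXD13 in HOXD at 13.2. Within HOXB, HOXB2 of the hindbrain came after HOXB6 at 15.7. Within HOXC, HOXC4 had 12.8 and HOXC13, a gene of hair and nails, 8.69.

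The median over all genes of a cluster was 8.61 CPM per kb in HOXA, 6.65 in HOXB, 6.67 in HOXC and 3.57 in HOXD. Levels did not follow position in a simple order, since HOXD13 at the tail end of its cluster was among the highest and HOXD12 beside it among the lowest. HOXB9 was read at 115, 126 and 124 CPM in the 3 untreated WT libraries. HOXA9 was read there at 106, 111 and 112 CPM and HOXD13 at 41.3, 43.5 and 42.5 CPM. The libraries of this group lay close together for all 3 genes.

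**Figure D1:**
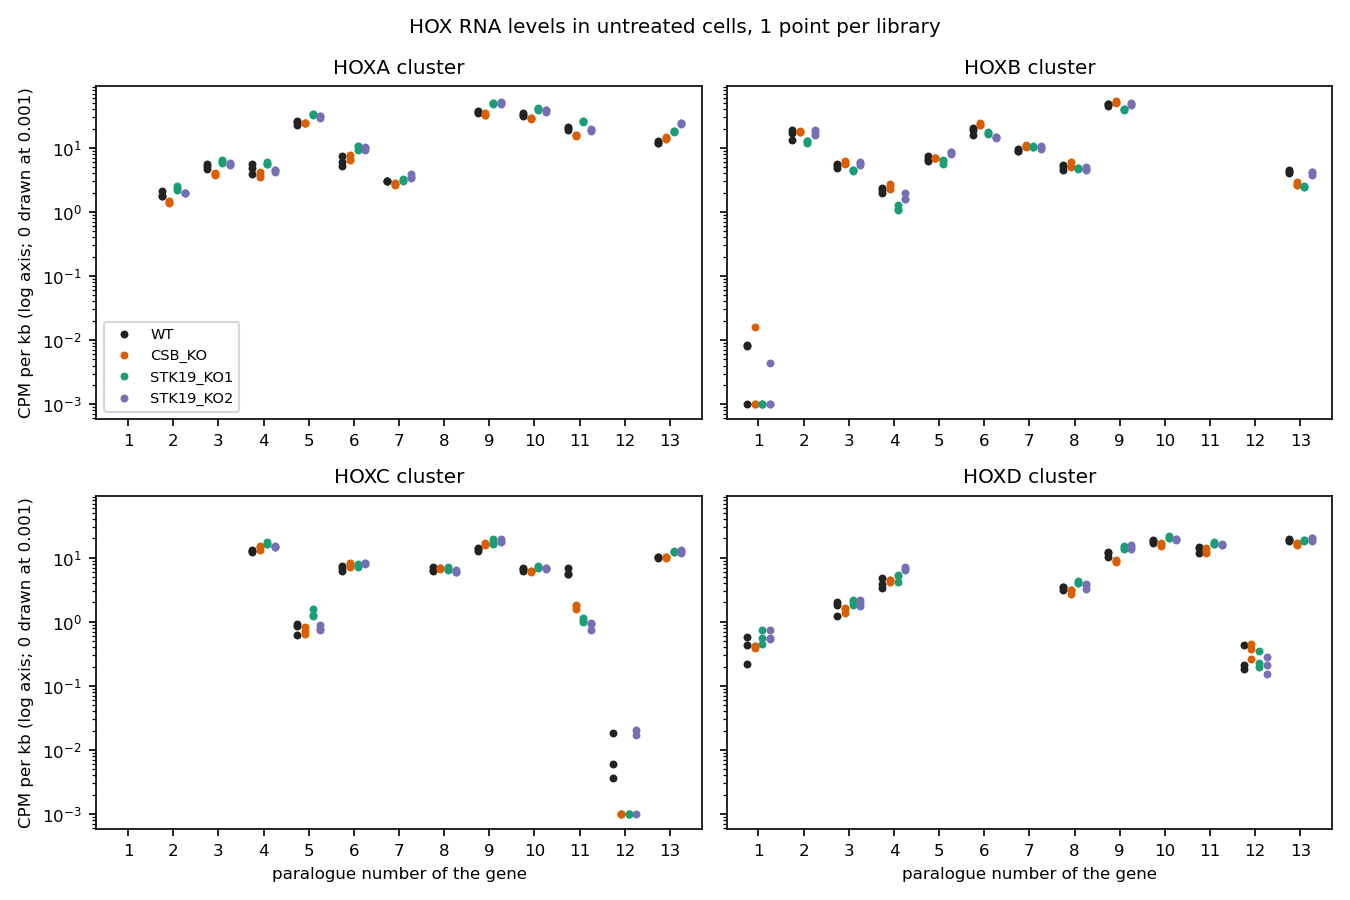
RNA levels of HOX genes in untreated cells, in CPM per kb on a log axis, against the paralogue number, with 1 panel per cluster and 1 point per library in 4 colours for the 4 lines. Most genes sit between 1 and 100 CPM per kb in every line, and HOXB1 and HOXC12 sit far below, near the 0 that is drawn at 0.001.

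HOXB1, HOXC12 and HOXD12 had the fewest counts. HOXC12 was not tested: its highest count was 10, it was at 0 in 27 libraries, and it had 138 counts over all libraries. HOXB1, a hindbrain gene, had 0 to 110 counts and was at 0 in 16 libraries. HOXD12, a gene of the distal limb, had 3 to 146 counts. Because of these low counts, most values of HOXB1 and HOXD12 are given as counts, and not all of their calls are listed. No HOX gene was at 3 counts or fewer in every library.

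Some genes share sequence or territory. By GENCODE 29, exons of HOXB3 overlap those of HOXB4 and HOXB6, exons of HOXC6 those of HOXC4 and HOXC9, and exons of HOXD10 those of HOXD11. The shared part ran from 4.23% of the exonic bases of HOXB4 to 21.4% of those of HOXD11. The spans of the 8 long members, HOXA3, HOXA9, HOXB3, HOXB7, HOXC4, HOXC6, HOXD3 and HOXD10, also run over neighbouring HOX genes. Other entries overlap members on the same strand, for example another entry named HOXC5 at HOXC4, HOXC5 and HOXC6. Antisense RNAs overlap several members, for example HOTTIP at HOXA13. The library kit keeps strand, but the labels used here do not state the strand setting of the counting, so levels of these members may hold reads of a neighbour.

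Libraries held 36.5 M to 212.8 M counts, with a median of 56.3 M. ERCC6 averaged 6.97 ± 0.611 CPM (SD, n = 3) in untreated CSB_KO and 23.5 ± 0.473 in untreated WT. Over all conditions it ran from 6.40 to 15.6 CPM in the 18 CSB_KO libraries and from 13.5 to 44.8 in the 54 others, so the ranges met. STK19 RNA stood at 17.5 ± 0.587 and 17.1 ± 0.862 CPM in the untreated STK19 knockouts and at 19.0 ± 1.07 in WT, which does not check those labels. Of 10 genes typical of HEK293 cells, 9 averaged over 1 CPM, with a sum of 1179 to 1883 CPM. In 5 libraries the counts stood apart from both other libraries of their group: replicate 1 of untreated WT, WT at 3 h, WT at 4 h with DMSO and STK19_KO1 at 4 h with ATRi, and replicate 3 of STK19_KO1 at 3 h. None of the 20 h libraries did.

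The untreated lines already differed in HOX RNA, most of all in HOXC11. HOXC11, a gene of the lumbosacral region and hind limb, was lower in each knockout line than in WT. It was read at 18.1, 22.4 and 18.3 CPM in WT and at 5.09, 5.68 and 6.04 CPM in CSB_KO. The STK19 lines had 3.67, 3.45 and 3.18 CPM (STK19_KO1) and 3.12, 2.45 and 3.04 CPM (STK19_KO2). No library of a knockout line reached the lowest of WT. For CSB_KO, STK19_KO1 and STK19_KO2 the log2 differences (± SE, edgeR quasi-likelihood fit over all genes) were -1.81 ± 0.12, -2.52 ± 0.12 and -2.77 ± 0.12. The adjusted p was 2.36e-19, 6.97e-25 and 9.02e-27. All 3 comparisons use the same 3 WT libraries.

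A gene is said to have risen or fallen where its Benjamini-Hochberg adjusted p over all tested genes was under 0.05. In CSB_KO, 6 of 38 HOX genes were higher than in WT and 10 lower, where 19.1% and 15.7% of all tested genes were. In STK19_KO1, 18 were higher and 7 lower, against 29.5% and 19.2%. In STK19_KO2, 13 were higher and 3 lower, against 26.6% and 20.7%. The median log2 difference of the HOX genes was -0.01 in CSB_KO, 0.25 in STK19_KO1 and 0.12 in STK19_KO2, where that of all tested genes was -0.00087, 0.05 and 0.03. In bulk RNA, fewer cells with a transcript and less transcript per cell cannot be told apart. Marker sums of other cell types also differed between the untreated lines. The sum of 6 kidney tubule markers was 15.2-16.7 CPM in WT and 21.4-24.1 CPM in CSB_KO, and the STK19 lines had 23.4-26.3 (STK19_KO1) and 23.7-25.9 (STK19_KO2). The sum of 6 fibroblast markers was 6.71-8.93 CPM in WT and 10.1-11.5 CPM in CSB_KO, and the STK19 lines had 6.53-6.80 and 11.9-12.8. Their part in the differences was not tested.

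The clusters went separate ways in STK19_KO1. There, 10 of 11 HOXA genes were higher than in WT and none lower, while no HOXB gene was higher and 6 of 10 were lower. In STK19_KO2, 6 of 11 HOXA genes were higher and none lower. HOXA13, the gene of the digits and the genital tract, was read at 64.0, 60.04 and 61.3 CPM in WT and at 70.6, 74.2 and 73.6 CPM in CSB_KO. It reached 88.3, 92.7 and 92.4 CPM in STK19_KO1 and 123, 126 and 121 CPM in STK19_KO2, with no overlap between any of the lines. Its log2 difference from WT was 0.24 ± 0.07 in CSB_KO, 0.56 ± 0.07 in STK19_KO1 and 0.997 ± 0.07 in STK19_KO2. HOXA6, a central gene, was higher by 0.69 and 0.66 in the STK19 lines. HOXC9 was higher in each knockout line, by 0.27, 0.39 and 0.45.

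HOXB4, known for expanding blood stem cells, was read at 7.43, 8.19 and 8.90 CPM in WT and at 4.18, 4.73 and 4.06 CPM in STK19_KO1, a log2 difference of -0.93 ± 0.09 with no overlap. In STK19_KO2 it had 7.49, 5.87 and 6.05 CPM, which overlapped WT, with a difference of -0.35 ± 0.08. HOXB13, the prostate gene at the tail end of HOXB, was lower in CSB_KO (-0.62 ± 0.08) and STK19_KO1 (-0.77 ± 0.09). In STK19_KO2 its difference was -0.06 ± 0.08 and not called. HOXB6 was higher in CSB_KO by 0.32 and differed by -0.34 in STK19_KO2, where it was lower. HOXA2, which sets the identity of the second pharyngeal arch, differed by -0.42 in CSB_KO. HOXD4 was higher in STK19_KO2 by 0.73. Weaker calls were HOXB7 in CSB_KO (0.24), lost without CSB_KO replicate 2 or WT replicate 3 (adjusted p in edgeR 0.0677 and 0.0628), and HOXC5 in STK19_KO1 (0.73), lost without WT replicate 1 or STK19_KO1 replicate 2 (0.0961 and 0.0786).

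**Figure D2:**
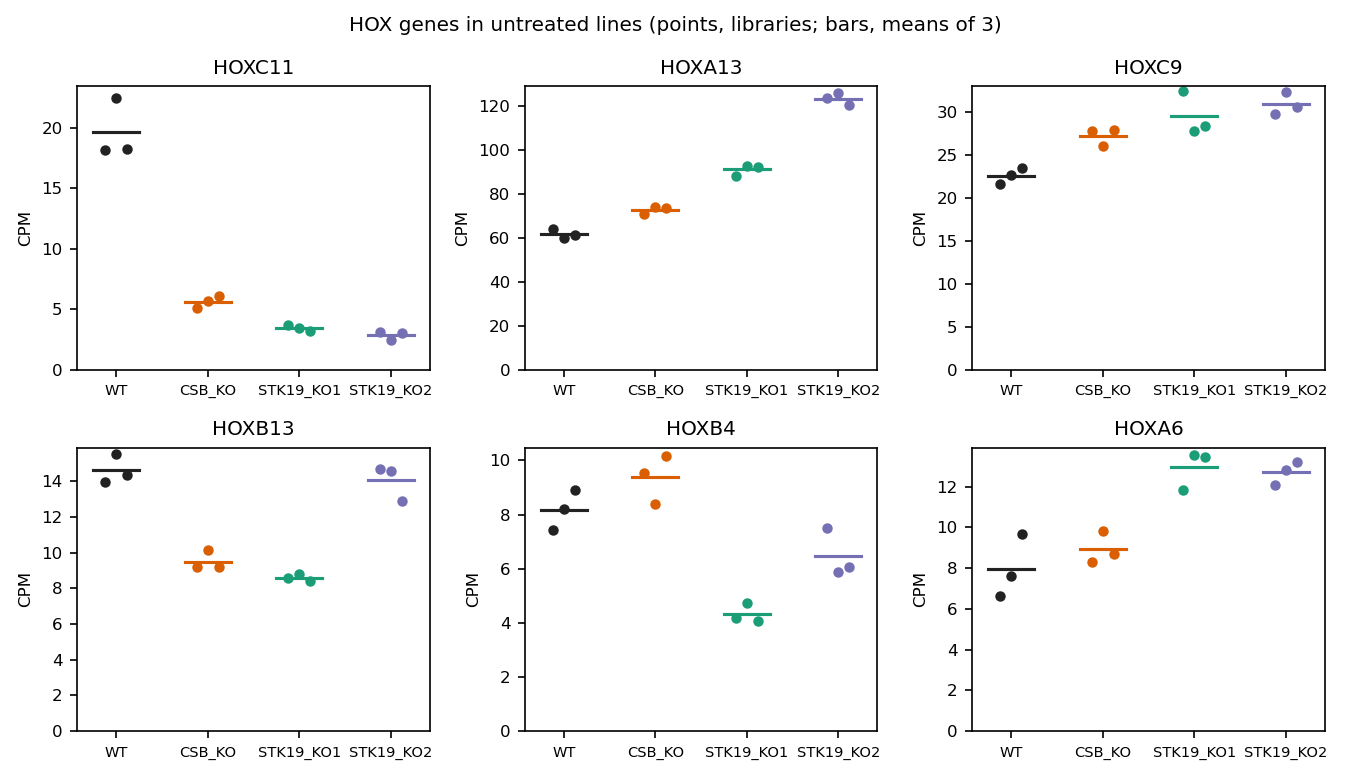
Levels of 6 HOX genes in untreated cells of the 4 lines, in CPM on linear axes from 0, with points for the 3 libraries and bars for their mean. HOXC11 is lower in every knockout line than in WT, HOXA13 steps up from WT to STK19_KO2, and HOXB4 and HOXB13 are lower in STK19_KO1.

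At 3 h after UV the HOX genes moved in both directions, with 1 set of genes rising and another falling in all 4 lines. HOXA4, HOXB4, HOXB5, HOXB6, HOXB9, HOXC9, HOXD10 and HOXD13 rose in every line. HOXA3, HOXA11, HOXA13, HOXB3, HOXC13 and HOXD4 fell in every line. These are 8 and 6 of 38 genes, where 18.5% of all tested genes rose and 20.4% fell in every line. Both counts are shares near those of all genes. In WT 13 of 38 HOX genes rose and 13 fell, against 33.6% and 28.8% of all tested genes. In CSB_KO the counts were 11 and 16, against 32.0% and 29.3%. STK19_KO1 had 12 and 11, against 29.9% and 30.6%, and STK19_KO2 had 13 and 7, against 29.1% and 28.5%. Leaving aside the falls in CSB_KO (42.1% of the HOX genes) and STK19_KO2 (18.4%), these shares are near those of all genes. The median log2 change was 0.04, -0.13, -0.05 and 0.06 in WT, CSB_KO, STK19_KO1 and STK19_KO2. Marker sums moved at 3 h too. The sum of 6 blood markers went from 0.401-0.593 CPM to 1.84-2.06 in WT, and that of 6 kidney tubule markers from 23.4-26.3 to 14.3-19.3 CPM in STK19_KO1. Their part in these changes was not tested.

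Short genes as a whole shifted upward at 3 h, and the short HOX genes stood lower. Over all 3124 tested genes that span under 10 kb, the median log2 change at 3 h was 0.40, 0.40, 0.41 and 0.36 in the same order of lines, and 55.1% to 56.7% of them rose. The 30 tested HOX genes under 10 kb had medians of 0.05, -0.06, 0.01 and 0.15, with 12, 10, 11 and 12 that rose. This difference between the lists was not tested.

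HOXB5, a gene of the neck, lung and enteric nerves, rose most among well-counted members in WT, CSB_KO and STK19_KO1, while HOXB4 rose more in STK19_KO2. In WT it went from 12.7, 13.69 and 15.3 CPM untreated to 38.8, 41.2 and 42.4 CPM at 3 h, and in CSB_KO from 13.9, 14.3 and 14.4 to 30.8, 35.1 and 36.0 CPM. In STK19_KO1 it went from 13.0, 12.7 and 11.5 to 30.6, 31.3 and 37.9 CPM, and in STK19_KO2 from 16.4, 17.4 and 17.8 to 31.5, 31.8 and 31.2 CPM. Every irradiated library was above every untreated library of its line. The log2 changes were 1.55 ± 0.07, 1.26 ± 0.07, 1.43 ± 0.07 and 0.87 ± 0.07, with an adjusted p in edgeR of at most 1.34e-16.

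HOXA4, a gene of the neck vertebrae whose promoter is printed above, rose by 0.95, 0.89, 0.83 and 0.82 (order WT, CSB_KO, STK19_KO1, STK19_KO2). HOXB4 rose by 0.53, 0.64, 0.91 and 0.98. HOXB6 rose by 0.48 to 0.83 over the lines, where WT at 3 h had 51.5, 75.3 and 74.5 CPM and replicate 1 was the low one. HOXC5 rose in CSB_KO by 0.99 and in STK19_KO2 by 0.71. HOXB1 stood at 1, 1 and 0 counts in untreated WT and at 8, 13 and 12 at 3 h, and at 0, 0 and 2 against 6, 4 and 7 in CSB_KO. In STK19_KO1 it went from 0, 0 and 0 to 3, 1 and 3 counts, a call that is lost without any of 5 single libraries of the comparison (adjusted p in edgeR 0.0551 to 0.0848).

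HOXA13 and HOXA3 had large falls in every line, and HOXD4 had the largest in WT. HOXA13 fell by 0.57 on the log2 scale in WT, from 64.0, 60.04 and 61.3 to 44.3, 40.6 and 39.8 CPM. It fell by 1.296 in CSB_KO, from 70.6, 74.2 and 73.6 to 29.8, 29.2 and 29.9 CPM. In the STK19 lines the fall was 1.01 and 0.79, to 52.2, 46.1 and 37.2 CPM (STK19_KO1) and 74.7, 68.8 and 70.1 CPM (STK19_KO2). The groups did not overlap in any line. HOXA3, needed for thymus and parathyroid, changed by -0.72 ± 0.07, -1.16 ± 0.08, -0.66 ± 0.07 and -0.69 ± 0.07 in WT, CSB_KO, STK19_KO1 and STK19_KO2. HOXB3 changed by -0.41, -0.81, -0.74 and -0.57. HOXD12, on few counts, was called lower in CSB_KO. That call was lost without replicate 1 or 3 of either group (adjusted p in edgeR 0.0673 to 0.129). HOXD4 changed by -0.78 ± 0.14 in WT, from 4.94, 7.09 and 5.74 to 2.81, 3.99 and 3.498 CPM, and HOXD11 by -0.66 ± 0.12.

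Without the libraries that stood apart, 25 HOX genes passed in WT at 3 h (12 rose, 13 fell) and 22 in STK19_KO1 (10 rose, 12 fell). HOXB5 then rose by 1.51 in WT and 1.33 in STK19_KO1, and HOXA13 fell by 0.90 in STK19_KO1.

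At 4 h with DMSO 8 genes that rose and 5 that fell in every line at 3 h did so again, in a comparison that shares its untreated libraries with that at 3 h. HOXC8 and HOXD9 joined the genes that rose in every line, and HOXB3 left those that fell. Of all tested genes 18.9% rose and 21.6% fell in every line at 4 h. In WT 14 rose and 9 fell (35.0% and 31.3% of all genes), and in CSB_KO 13 and 14 (33.6% and 30.2%). In STK19_KO1 10 rose and 11 fell (27.9% and 30.0%), and in STK19_KO2 16 and 7 (31.6% and 29.8%). HOXB5 rose by 1.83, 1.47, 1.51 and 0.90 in WT, CSB_KO, STK19_KO1 and STK19_KO2. HOXA4 rose by 1.14, 1.03, 1.02 and 1.17, and HOXB4 reached 1.17 and 1.18 in the STK19 lines. HOXA13 changed by -0.69, -1.503, -1.09 and -1.10, and HOXA3 by -1.001 in CSB_KO and -0.59 in STK19_KO2. HOXB3 changed by -0.84 and -0.58 in those 2 lines, HOXC5 rose by 1.298 in CSB_KO, and HOXB6 rose by 0.92 in STK19_KO2. HOXB1 had 18, 15 and 20 counts in WT and 2, 2 and 8 in CSB_KO, where its call was lost without untreated replicate 2 or DMSO replicate 3 (adjusted p in edgeR 0.106 and 0.192). HOXC11 changed by -0.54, -0.67 and -0.66 in WT, CSB_KO and STK19_KO1, and by 0.05 in STK19_KO2, which was not called. HOXD9, a gene of the upper limb and lumbar cord, rose by 1.06 ± 0.08 in WT, from 19.0, 22.0 and 23.05 to 42.5, 41.4 and 49.5 CPM.

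At 20 h with DMSO HOXA4, HOXB1, HOXB4, HOXC5 and HOXD3 were above untreated in every line, and HOXA2, HOXA10, HOXA11, HOXA13, HOXB8, HOXD4 and HOXD10 were below. These are 5 and 7 of 38 genes, where 15.3% of all tested genes were above and 16.3% below in every line. Both counts are shares near those of all genes. In WT 11 HOX genes rose and 12 fell (30.0% and 25.4% of all genes), and in CSB_KO 12 and 17 (38.3% and 40.5%). In STK19_KO1 9 rose and 16 fell (32.1% and 37.0%), and in STK19_KO2 7 and 20 (33.8% and 37.8%). The median change was -0.03, -0.17, -0.08 and -0.15 in the 4 lines.

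Marker sums of other cell types moved with these changes. From untreated to 20 h the sum of 6 blood markers, of which CD14 alone averaged over 1 CPM, went from 0.401-0.593 to 1.79-2.21 CPM in WT and from 0.316-0.572 to 21.4-23.2 CPM in CSB_KO. In STK19_KO1 it went from 0.538-0.851 to 6.51-6.87 CPM, and in STK19_KO2 from 0.352-0.729 to 3.83-4.44 CPM. The fibroblast sum went from 6.71-8.93 to 13.1-14.4 CPM in WT and was higher in every line. The kidney tubule sum went from 15.2-16.7 to 8.63-8.99 CPM in WT and was lower in every line, most of all in STK19_KO2, from 23.7-25.9 to 6.62-7.80 CPM. Their part in the result was not tested.

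HOXB5 was back below its untreated level in WT (-0.34), STK19_KO1 (-0.30) and STK19_KO2 (-0.75). In CSB_KO it was still high, at 33.3, 33.1 and 33.2 CPM against 13.9, 14.3 and 14.4 untreated, a change of 1.23 ± 0.07. HOXA13 stayed low in the knockout lines. It was read at 52.9, 51.0 and 56.3 CPM in WT and at 16.4, 16.96 and 16.4 CPM in CSB_KO at 20 h. Against untreated, WT, CSB_KO, STK19_KO1 and STK19_KO2 changed by -0.21 ± 0.07, -2.13 ± 0.08, -1.28 ± 0.07 and -1.36 ± 0.07. HOXB8, a gene of spinal sensory circuits and blood progenitors, changed by -0.28, -1.43, -1.20 and -1.28 in the same order.

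HOXC5 rose most among members with counts in all libraries, by 1.55 ± 0.25, 1.82 ± 0.25, 1.42 ± 0.24 and 2.03 ± 0.25. It went from 1.12, 1.57 and 1.66 to 3.20, 4.47 and 5.06 CPM in WT. HOXB4 rose by 0.54, 1.19, 0.80 and 1.07. HOXB1 had 29, 95 and 43 counts in CSB_KO at 20 h against 0, 0 and 2 untreated, and 13, 12 and 13 in WT. In STK19_KO2 it had 0, 6 and 5, which overlapped the untreated counts of 0, 0 and 1, and that call was lost without any of 4 single libraries (adjusted p in edgeR 0.0948 to 0.122). After HOXA13 and HOXB8, the next largest falls were HOXC8 in STK19_KO1 (-0.68) and HOXD4 in STK19_KO2 (-1.12). In WT the largest were HOXD4 (-0.52), HOXA2 (-0.44) and HOXA11 (-0.37), a gene of kidney and forearm. HOXD12 had 40, 42 and 146 counts in WT at 20 h against 12, 14 and 48 untreated, called higher. That call was lost without untreated replicate 1 or 2 or DMSO replicate 3 (adjusted p in edgeR 0.0545 to 0.0817), and without the libraries that stood apart (0.0621). In CSB_KO it had 4, 5 and 10 against 42, 57 and 30, and was called lower.

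**Figure D3:**
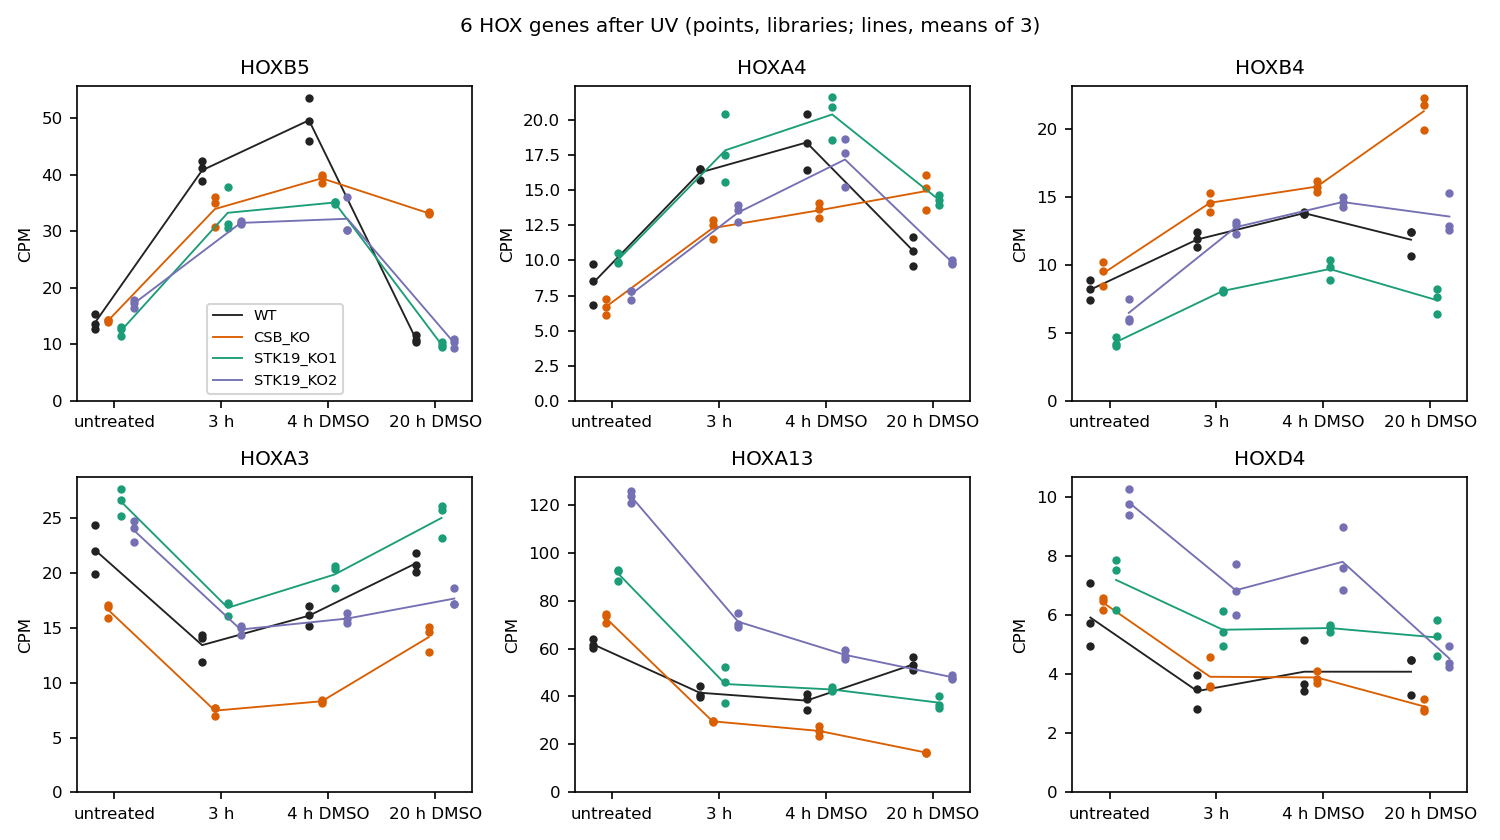
Levels of 6 HOX genes in untreated cells, at 3 h after UV, and at 4 h and 20 h with DMSO, in CPM on linear axes from 0, with points for libraries and lines through the means of 3 in each line. HOXB5, HOXA4 and HOXB4 are higher at 3 h and 4 h, HOXA3, HOXA13 and HOXD4 are lower, and HOXB5 in CSB_KO stays at 33.1 to 33.3 CPM at 20 h while the other lines return to 9.31 to 11.6.

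ATR inhibition changed few HOX genes at 4 h. In WT HOXA5 rose by 0.27 ± 0.06 and HOXA9 by 0.17 ± 0.05, and HOXD8, a gene of the trunk, fell by 0.32 on the log2 scale. These are 2 of 38 that rose and 1 that fell, where 2.03% and 0.627% of all tested genes did. In CSB_KO 4 rose and none fell (2.70% and 0.278% of all genes): HOXD10 by 0.42 ± 0.05, HOXB3 by 0.34 ± 0.07, HOXA4 by 0.33 ± 0.10 and HOXD9 by 0.33 ± 0.09. In STK19_KO1 HOXA5 and HOXA9 rose by 0.36 ± 0.06 and 0.23 ± 0.05, 2 genes against 0.776% of all genes, and none fell (0.129%). In STK19_KO2 no HOX gene passed in edgeR or in DESeq2, where 0.194% of all genes rose and 0.0259% fell by adjusted p in edgeR. There 7 HOX genes had an unadjusted p under 0.05 in edgeR, a share that was not computed over all genes.

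HOXA5 was read at 37.8, 44.2 and 44.1 CPM with DMSO and 52.1, 50.2 and 50.3 CPM with ATRi in WT, and at 59.7, 63.7 and 64.1 and 89.1, 74.5 and 76.3 CPM in STK19_KO1. HOXD10, a gene of the lumbar cord and limb, was read at 48.9, 48.04 and 48.8 CPM with DMSO and 65.4, 62.3 and 67.0 CPM with ATRi in CSB_KO. The groups did not overlap. Several of these calls were lost in fits without 1 library, which kept the trended dispersion (the modelled spread between libraries) of the full fit. Without WT replicate 1 with DMSO, which stood apart, no WT call was left, and without any single WT library with ATRi 1 was left. In CSB_KO 2 were left without replicate 1 or 2 with DMSO or replicate 1 with ATRi. In STK19_KO1 1 was left without replicate 1 with ATRi, which stood apart. With all the libraries that stood apart left out together and the dispersion estimated again, 4 WT genes passed (2 rose, 2 fell) and 3 rose in STK19_KO1. These settings differ in the dispersion and in the other libraries left out. They therefore do not settle whether the WT calls rest on DMSO replicate 1. Fitted with the libraries of the line alone, 0 calls were left in WT and 1 in STK19_KO1.

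At 20 h most HOX genes were lower with ATRi than with DMSO in every line, and nearly all were in WT. In WT 36 of 38 fell and 0 rose, where 33.7% and 30.2% of all tested genes did. In CSB_KO 24 fell and 3 rose, against 17.5% and 14.1%. In STK19_KO1 31 fell and 0 rose, against 30.1% and 31.5%, and in STK19_KO2 34 and 0, against 27.7% and 30.5%. Falls thus covered 94.7%, 63.2%, 81.6% and 89.5% of the tested HOX genes in WT, CSB_KO, STK19_KO1 and STK19_KO2. The median log2 difference was -0.97, -0.38, -0.83 and -1.05, where that of all tested genes was -0.03, 0.01, 0.02 and 0.03. The number that fell at least 2-fold was 19, 1, 14 and 22, and the share of all genes at that cut was not computed. Of all genes under 10 kb, 27.9%, 18.8%, 31.4% and 29.2% fell in the same order of lines, with medians of 0.01, 0.00, -0.04 and -0.01. No test of the HOX genes as a set was made.

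The falls ran through all 4 clusters, and HOXC was the most uniform. All 8 tested HOXC genes fell in every line. For WT, CSB_KO, STK19_KO1 and STK19_KO2 the numbers that fell were 11, 7, 10 and 11 of 11 HOXA genes, 10, 4, 5 and 8 of 10 HOXB genes, and 7, 5, 8 and 7 of 9 HOXD genes. The genes that fell in every line included HOXA3, HOXA7, HOXA9, HOXA10, HOXA11, HOXA13, HOXB2, HOXB6, HOXB7, HOXB13, HOXC4, HOXC5, HOXC6, HOXC8, HOXC9, HOXC10, HOXC11, HOXC13, HOXD1, HOXD8 and HOXD11, where 8.78% of all tested genes fell in every line. These are genes of the hindbrain, the trunk and the tail end, regions that members outside this list also cover, for example HOXB9 and HOXD13. Of the 38 tested genes, 31 had their lowest group mean of all 24 groups in a group with ATRi at 20 h. This count draws on the same ATRi libraries as the falls, and its share over all genes was not computed.

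HOXB8 fell most among well-counted genes in WT. It was read at 7.80, 9.15 and 8.43 CPM with DMSO and 1.70, 1.84 and 1.69 CPM with ATRi, a log2 difference of -2.28 ± 0.11 (adjusted p 1.39e-25 in edgeR). In STK19_KO1 the difference was -1.51 ± 0.11 and in STK19_KO2 -1.91 ± 0.12. In CSB_KO it was -0.11 ± 0.11, at 4.04, 4.42 and 3.88 CPM with DMSO and 3.80, 4.27 and 3.25 CPM with ATRi, which overlapped. The level with DMSO was itself lower in CSB_KO than in WT, and these DMSO libraries also enter the comparison with untreated cells.

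HOXA13 was read at 52.9, 51.0 and 56.3 CPM with DMSO and 12.1, 11.7 and 13.1 CPM with ATRi in WT. Its differences in WT, CSB_KO, STK19_KO1 and STK19_KO2 were -2.12 ± 0.08, -0.69 ± 0.08, -1.39 ± 0.07 and -1.66 ± 0.08. HOXB13 was read at 10.2, 9.26 and 9.03 CPM with DMSO and 2.13, 2.22 and 2.301 CPM with ATRi in STK19_KO1. Its differences were -1.86 ± 0.09, -0.66 ± 0.10, -2.11 ± 0.09 and -1.95 ± 0.10. The libraries with ATRi were all below those with DMSO for both genes in every line.

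HOXC11 changed by -1.21 ± 0.12, -0.98 ± 0.13, -1.69 ± 0.13 and -1.75 ± 0.14. Of the most abundant members, HOXA9 was read at 121, 122 and 123 CPM with DMSO and 72.7, 71.5 and 72.3 CPM with ATRi in WT, and at 139, 137 and 138 and 69.1, 66.6 and 65.5 CPM in STK19_KO2. HOXA10 changed by -1.27, -0.61, -0.94 and -1.47. HOXB9 changed less, by -0.39 in WT and -0.37 in STK19_KO2, with -0.11 and -0.10 in CSB_KO and STK19_KO1, which were not called. The groups of HOXA9 did not overlap in either of the lines given.

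HOXD13 was the steadiest member. It was read at 42.2, 45.2 and 44.8 CPM with DMSO and 42.2, 46.4 and 46.0 CPM with ATRi in WT, where the libraries overlapped. The differences were 0.03 ± 0.05 in WT and 0.08 ± 0.05 in STK19_KO1, not called, and -0.15 ± 0.05 in CSB_KO and -0.15 ± 0.05 in STK19_KO2. Its highest group mean was 1.56 times its lowest over all 24 groups, against 2.21 for HOXB3, the next steadiest, and 12.04 for HOXA13 and 14.2 for HOXC11 at the other end.

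Rises were seen in CSB_KO alone among these comparisons: HOXD10 by 0.29 ± 0.05, HOXB3 by 0.27 ± 0.06 and HOXB4 by 0.19 ± 0.08. HOXB4 was the weakest of these, with an adjusted p in edgeR of 0.0474, and 0.0633 to 0.176 without any of 4 single libraries of the comparison (DMSO replicates 1 and 2, ATRi replicates 1 and 3). The largest falls in CSB_KO were HOXD1 (-1.16 ± 0.30), HOXC11 and HOXB7 (-0.92 ± 0.08). HOXD1, a low gene, was read at 0.91, 1.14 and 0.927 CPM with DMSO and 0.514, 0.218 and 0.718 CPM with ATRi, and its call was lost without ATRi replicate 2 (adjusted p in edgeR 0.0891). Genes at low counts fell in WT too: HOXB1 from 13, 12 and 13 to 1, 1 and 3 counts, and HOXD12 from 40, 42 and 146 to 7, 8 and 11. The HOXB1 call was lost without DMSO replicate 1 or ATRi replicate 2 (adjusted p in edgeR 0.0605 and 0.0649).

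**Figure D4:**
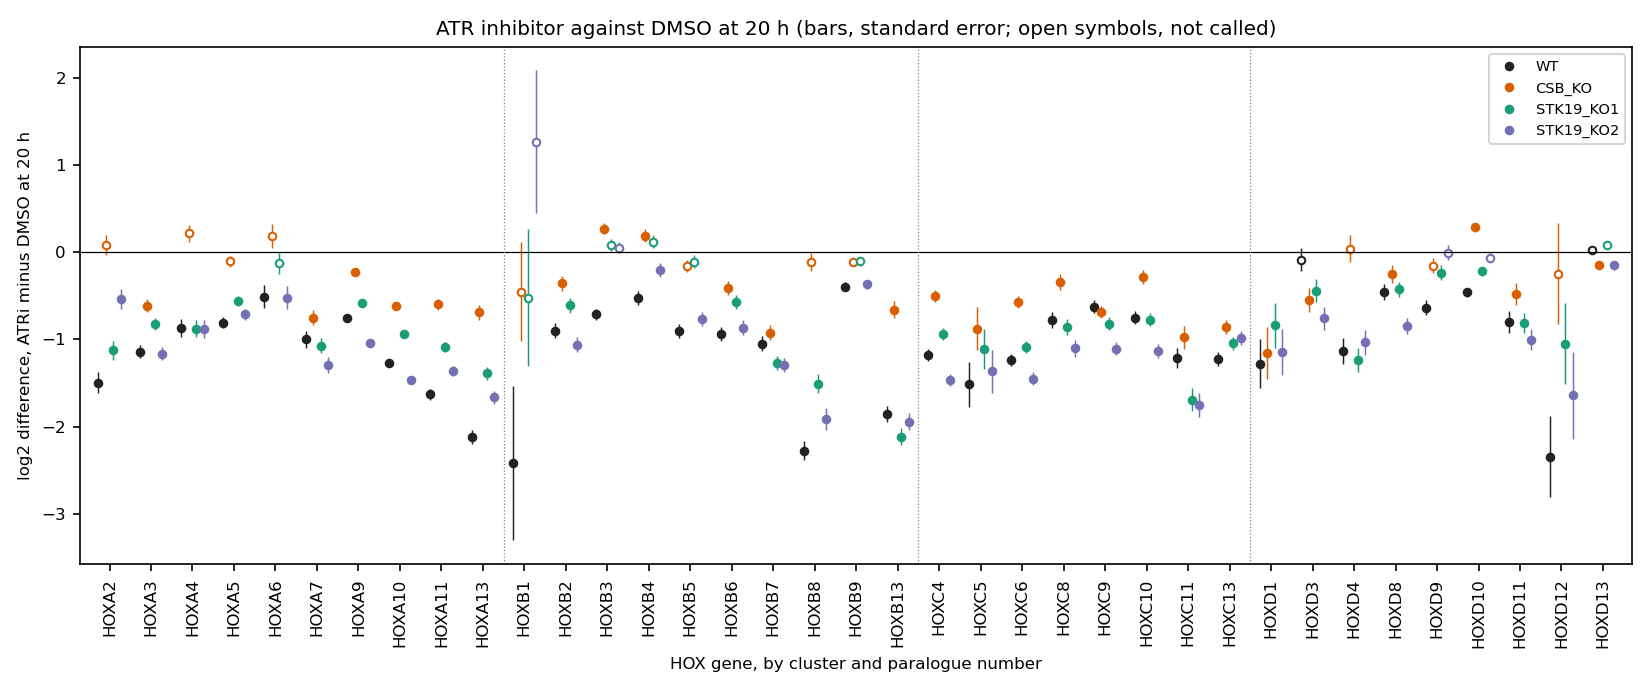
Log2 difference between ATRi and DMSO at 20 h for 37 tested HOX genes in cluster order, with 4 colours for the lines, bars for the standard error, and open symbols for differences that were not called. WT lies below 0 for 36 of 37 genes, CSB_KO lies nearest to 0 for most genes, and HOXD13 stays near 0 in every line.

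Summed over all 4 clusters, HOX RNA was 996, 1032 and 1064 CPM with DMSO and 567, 588 and 573 CPM with ATRi in WT. The sums were 993, 1037 and 1019.6 and 826, 852 and 859 CPM in CSB_KO, 1058, 1026 and 1054 and 690.5, 692 and 659 in STK19_KO1, and 969, 973 and 960.0 and 539.8, 539 and 527 in STK19_KO2. Libraries with ATRi were below all with DMSO in each line. The HOXA sum went from 414, 417 and 428 to 190.3, 195 and 195 CPM in WT, and the HOXD sum from 153, 160.0 and 165 to 121, 123 and 125. These sums weight abundant genes most and were not tested.

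**Figure D5:**
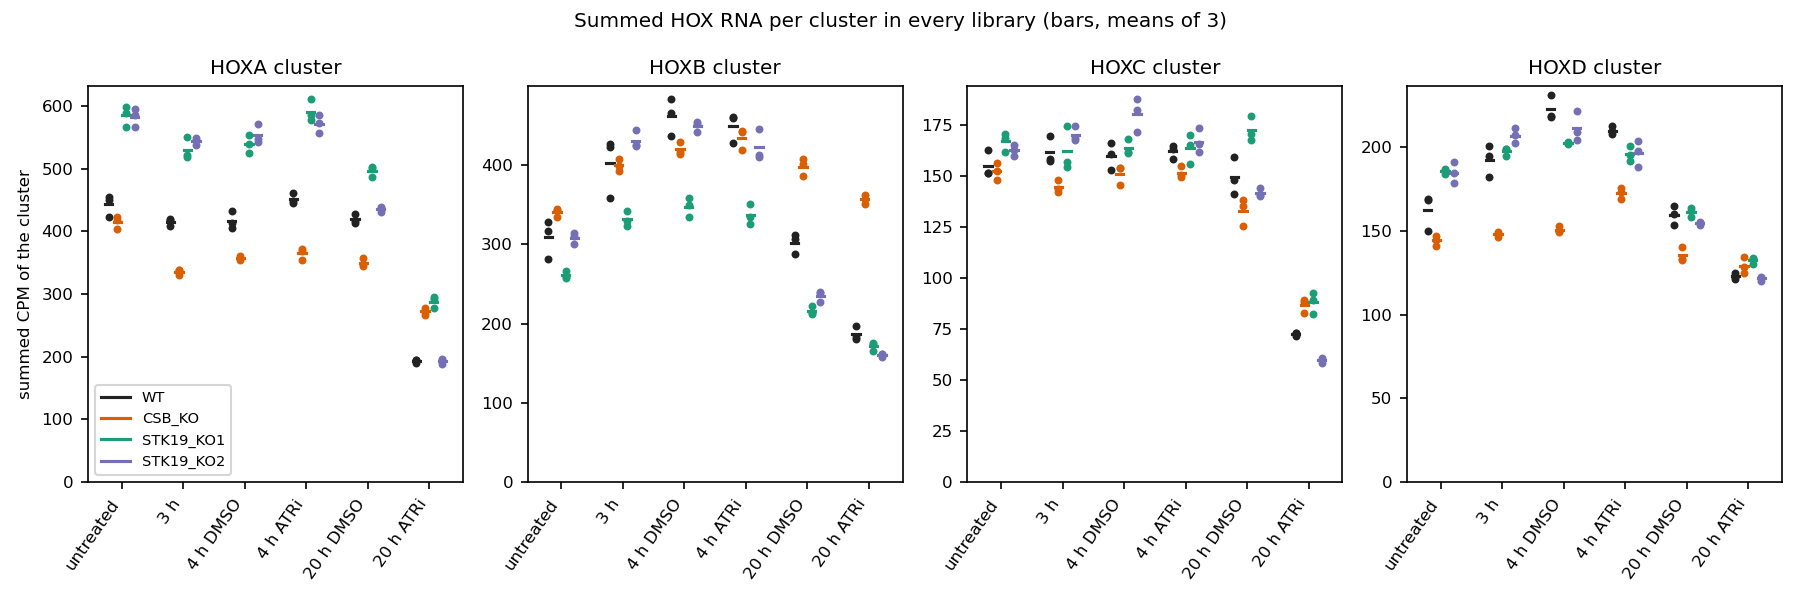
Summed CPM of each HOX cluster in every library, by condition, with bars for the mean of 3 and colours for the 4 lines. At 20 h with ATRi the HOXA sum is 190.3 to 195.5 CPM in WT and 267.0 to 278.3 in CSB_KO, below the DMSO libraries of the same line.

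Marker sums moved between DMSO and ATRi as well. The summed level of 6 fibroblast markers went from 13.1-14.4 CPM with DMSO to 6.67-7.42 with ATRi in WT, from 14.4-16.3 to 12.7-13.7 in CSB_KO, from 12.9-15.2 to 7.44-8.51 in STK19_KO1 and from 20.6-22.2 to 10.2-11.3 in STK19_KO2. The sum of 6 kidney tubule markers, 5 of them in the table and LRP2 alone over 1 CPM on average, went from 8.63-8.99 to 2.29-2.44 in WT, from 10.3-12.3 to 10.6-11.96 in CSB_KO, from 7.11-7.70 to 5.16-5.32 in STK19_KO1 and from 6.62-7.80 to 5.10-5.54 in STK19_KO2. The sum of the blood markers was higher with ATRi in every line, for example 29.1-33.9 against 21.4-23.2 CPM in CSB_KO. Over 1 CPM on average were 3 of 6 fibroblast markers (COL1A1, COL3A1 and PDGFRA) and 1 of 6 squamous markers (SFN). Their part in the result was not tested.

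Against untreated cells, the 20 h groups with ATRi were low as well, in a comparison added after the data had been seen. In WT 30 HOX genes were lower and 1 higher (36.0% and 36.2% of all genes), and in CSB_KO 24 and 9 (41.0% and 39.4%). In STK19_KO1 32 were lower and 2 higher (41.3% and 35.5%), and in STK19_KO2 34 and 3 (41.2% and 36.9%). HOXA13 changed by -2.33, -2.82, -2.67 and -3.02 in WT, CSB_KO, STK19_KO1 and STK19_KO2. HOXB8 changed by -2.55, -1.54, -2.71 and -3.19. HOXA4 was lower in WT (-0.52) and both STK19 lines (-0.37 and -0.50) and higher in CSB_KO (1.38), with overlapping libraries in WT. HOXB13 changed by -1.96 in STK19_KO1 and -2.47 in STK19_KO2, and HOXA11 by -2.00 in WT. HOXB4 was higher in CSB_KO (1.38), STK19_KO1 (0.92) and STK19_KO2 (0.87). HOXC5 was higher in CSB_KO (0.95) and STK19_KO2 (0.67), and HOXD3 in WT (0.50). The other genes called higher in CSB_KO were HOXB5 (1.07), HOXB9 (0.35), HOXD9 (0.22), HOXA7 (0.21) and HOXD10 (0.12). Some of these were added after their values had been seen, to name every rise. HOXB1 had 12, 110 and 54 counts with ATRi in CSB_KO. In the STK19 lines it had 14, 5 and 1 (STK19_KO1) and 5, 11 and 6 (STK19_KO2), and it was called higher in each of the 3 knockout lines. HOXD12 was called lower in every line, with 3, 15 and 6 counts in CSB_KO. These comparisons share the untreated and ATRi libraries with those above.

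Whether a change differed between lines was tested directly with interaction terms. For ATRi against DMSO at 20 h, the difference in CSB_KO was higher than in WT, that is nearer to 0 or positive, for 27 of 38 HOX genes and lower for 2, where 24.7% and 26.9% of all genes were. The median of this difference of differences was 0.65 over the HOX genes and 0.02 over all genes. The largest were HOXB8 at 2.16 ± 0.16 and HOXD12 at 2.10 ± 0.74, the latter on few counts and lost without CSB_KO replicate 2 with DMSO or with ATRi (adjusted p in edgeR 0.0646 and 0.0546). The 2 lower genes were HOXD3 (-0.46) and HOXD13 (-0.17), named after their values were seen. For the mean of the STK19 lines against WT, 11 were higher and 3 lower (20.7% and 20.2% of all genes). Of those 11, 6 lie in HOXB, and HOXB3 had the largest difference among well-counted genes at 0.78 ± 0.08. The HOXB1 term rested on few counts and was lost without any of 6 single libraries (adjusted p in edgeR 0.0542 to 0.0866).

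For the change from untreated to 3 h, 11 HOX genes changed more negatively in CSB_KO than in WT and none more positively (8.30% and 1.48% of all genes). HOXA13 differed by -0.72 ± 0.10. For the mean of the STK19 lines 4 were more positive and 7 more negative (10.1% and 17.1%), led by HOXA2 at -0.63 ± 0.13 and HOXD9 at -0.56 ± 0.10.

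For the change from untreated to 20 h with DMSO, 8 were more positive and 12 more negative in CSB_KO than in WT (30.9% and 36.3% of all genes). HOXA13 differed by -1.92 ± 0.10 and HOXD12, on few counts, by -2.93 ± 0.65. HOXB5, described above and not chosen by this rule, differed by 1.57 ± 0.10. In the STK19 lines 3 were more positive and 15 more negative (22.8% and 32.7%), led by HOXA13 at -1.11 ± 0.09 and HOXB8 at -0.96 ± 0.12. The terms of CSB_KO and of the STK19 lines share the WT libraries.

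Paralogues of 1 number did not move as a block after UV. In group 13, HOXA13 and HOXC13 fell at 3 h in every line while HOXD13 rose by 0.32, 0.17, 0.11 and 0.32. HOXB13 fell in WT (-0.27) and CSB_KO (-0.35) and was not called in the STK19 lines (-0.07 and 0.04). In group 4, HOXA4 and HOXB4 rose in every line, HOXD4 fell in every line, and HOXC4 was not called in any, at -0.13 to 0.04. In group 3, HOXA3 and HOXB3 fell in every line, and HOXD3 fell in WT, CSB_KO and STK19_KO1 (-0.47, -0.55 and -0.40). In group 9, HOXB9 and HOXC9 rose in every line and HOXD9 in WT and CSB_KO (0.67 and 0.29), while HOXA9 was not called in any (-0.06 to 0.08). Neighbours within a cluster could also part: HOXB3 fell where HOXB4 and HOXB5 rose.

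Partners and regulators of HOX genes showed other patterns. The TALE cofactors, homeodomain proteins that bind DNA together with HOX proteins, fell at 3 h: 7 of 9 in each line, with 0 to 2 that rose, where 28.5% to 30.6% of all tested genes fell and 29.1% to 33.6% rose over the lines. MEIS1 changed by -2.30 to -1.28 over the lines and MEIS2 by -1.98 to -1.69. At 20 h with DMSO PKNOX2 changed by -2.74 to -2.06, while PKNOX1 rose by 0.67 to 1.10. With ATRi at 20 h, 7 of 9 fell and 1 rose in WT (33.7% and 30.2% of all genes). In CSB_KO 2 fell and 2 rose (17.5% and 14.1%). The STK19 lines had 4 that fell, with 2 that rose in STK19_KO1 (30.1% and 31.5%) and 1 in STK19_KO2 (27.7% and 30.5%). PBX4 rose in every line by 0.57 to 1.03, and MEIS2 fell by 0.25 to 0.51.

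Of 26 Polycomb genes, 13 to 16 fell at 3 h and 3 to 6 rose over the lines, against the 28.5% to 30.6% and 29.1% to 33.6% of all genes. JARID2 and AEBP2, accessory proteins of the complex that methylates histone H3 at lysine 27, changed by -2.20 to -1.97 and -2.08 to -1.73. CBX8, a reader of that mark, rose by 0.30 to 0.75. With ATRi at 20 h Polycomb genes went both ways, with 10, 8, 12 and 12 that fell and 11, 4, 7 and 9 that rose in the order WT, CSB_KO, STK19_KO1, STK19_KO2. Of all genes 33.7%, 17.5%, 30.1% and 27.7% fell and 30.2%, 14.1%, 31.5% and 30.5% rose. In WT the share of Polycomb genes that fell is near that of all genes. EZH2, the methylating enzyme, rose by 0.27 to 0.84 and PHC3 by 0.30 to 0.80, while PCGF3 and PCGF2 changed by -0.79 to -0.18 and -0.81 to -0.40. Of 15 Trithorax genes and activators, 5, 6, 4 and 4 fell and 6, 2, 7 and 5 rose with ATRi in the same order of lines. In WT and the STK19 lines the share that fell is near that of all genes. MLLT3, a subunit of the elongation machinery recruited by MLL, changed by -1.40 to -0.56 with ATRi and by -2.18 to -1.87 at 3 h. MEN1, which tethers MLL proteins to chromatin, changed by -0.73 to -0.37 with ATRi, and the demethylases KDM6B and KDM6A rose by 0.35 to 0.77 and 0.26 to 0.75.

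Of 13 retinoic acid and CDX regulators 11 were tested, and 6, 4, 6 and 6 fell with ATRi at 20 h in WT, CSB_KO, STK19_KO1 and STK19_KO2, with 1, 0, 2 and 1 that rose. The shares of all genes were 33.7%, 17.5%, 30.1% and 27.7% for falls and 30.2%, 14.1%, 31.5% and 30.5% for rises. CYP26B1, which breaks down retinoic acid, changed by -1.51 to -0.49, and its receptor RARG by -1.39 to -0.37. At 3 h CYP26C1, a related enzyme, rose by 2.71 to 3.99, and the receptors RARB and RXRA changed by -2.10 to -1.43 and -1.37 to -1.16. Of 19 genes that flank the clusters 16 were tested, and 10, 3, 7 and 8 fell with ATRi at 20 h, with 0, 2, 0 and 0 that rose, against the same shares of all genes. HNRNPA1, an RNA-binding protein gene beside HOXC, changed by -1.15 to -0.44, and CALCOCO2, an autophagy receptor gene near HOXB, by -0.83 to -0.33. PDX1, a pancreatic homeobox gene and the only ParaHox gene of 3 that was tested, rose with ATRi at 20 h in every line, by 0.55 to 0.92.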

How the data were processed

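Expected counts per gene were deposited by the authors as whole numbers, made with STAR and RSEM on GRCh38 per the submitters' processing notes. The labels' protocols give polyadenylated RNA and a directional library kit. Expected counts were used as integers. Genes were filtered with filterByExpr (minimum count 10, minimum total 15), which left 15470 of 19324, and scaled with TMM. A quasi-likelihood model with 1 coefficient per group (24 groups, 48 residual degrees of freedom) was fitted in edgeR 4.0.16 (R 4.3.3), with Benjamini-Hochberg adjustment over all tested genes at 0.05. Standard errors are the log2 difference over the root of F. CPM use the scaled library sizes, and lengths are unions of GENCODE 29 exons, which is not stated to be the authors' annotation. By rule the text gives the 3 highest genes of each cluster, up to 3 called rises and 3 called falls per comparison, and 2 genes per interaction. Other genes it singles out were chosen after their values were seen. The members and gene lists were chosen with earlier results of these data known. Alternatives were DESeq2 1.42.0, its size factors, no filter, a replicate block, only the compared lines, and leaving out libraries. Leave-one-out fits kept the trended dispersion of the full fit. Values of a few genes, in the clusters and in the other lists, are not reported here, though they enter the counts. The scripts were tested on simulated data.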

Additional observations from a re-analysis of the deposited data

Results flagged for a closer look

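Changes that differed between lines by an interaction term in edgeR (adjusted p under 0.05) are listed here as values. At 3 h against untreated, 11 of 38 HOX genes differed between CSB_KO and WT (9.78% of all tested genes did), with HOXA13 at -0.72 on the log2 scale. For the mean of the STK19 lines against WT 11 differed (27.2% of all genes), with HOXA2 at -0.63 and HOXD9 at -0.56. At 20 h with DMSO against untreated, 20 differed between CSB_KO and WT (67.2% of all genes), with HOXD12 at -2.93 and HOXA13 at -1.92, and 18 in the STK19 lines (55.4% of all genes), with HOXA13 at -1.11 and HOXB8 at -0.96. For ATRi against DMSO at 20 h, 29 differed between CSB_KO and WT (51.6% of all genes), with HOXB8 at 2.16 and HOXD12 at 2.10, and 14 in the STK19 lines (40.9% of all genes), with HOXB1 at 2.79 and HOXB3 at 0.78. The counts of 20 and 18 at 20 h with DMSO are shares below those of all genes, and the counts for the STK19 lines at 3 h and with ATRi are near them, so these are no results about HOX genes as a group. HOXB1 and HOXD12 rest on few counts.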

How the results depend on the processing

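Of 431 recomputed counts of called HOX genes, over 33 comparisons, 421 stayed within 1.5 times the reported count, and the 10 others all concerned ATRi at 4 h. With only the line in the fit that count was 0 in WT and 1 in STK19_KO1. Leaving out 1 library gave 0 to 2 in WT, 2 to 3 in CSB_KO and 1 to 2 in STK19_KO1. Of 1535 recomputed differences of named genes, none changed sign and 61 lost their call, most of them at ATRi 4 h or in HOXB1 and HOXD12. HOXB4 with ATRi at 20 h in CSB_KO lost its call with no filter (adjusted p 0.0539 in edgeR). For ATRi at 20 h, leaving out 1 library gave 35 to 36 genes in WT, 23 to 26 in CSB_KO, 29 to 31 in STK19_KO1 and 32 to 34 in STK19_KO2. With replicate number as a block, these counts were 36, 28, 32 and 34, and no count moved by over 1.5 times. Replicates with the same number deviated together (all 3 correlations over 0.1) in 4 of 23 group pairs, so the numbers are not taken to pair the samples in general. Among these 4, untreated WT gave correlations of 0.79, 0.62 and 0.71 with WT at 3 h. With WT at 4 h with DMSO it gave 0.81, 0.41 and 0.64. In both pairs not every library correlated best with its own number. The main model holds no replicate term for these comparisons. The median HOX level of 6.74 CPM per kb became 7.63 with the length of the longest transcript. The largest shift of the median of all genes was 0.10 on the log2 scale, with no filter. Counts limit HOXB1, HOXC12 and HOXD12.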
